A study of Mus musculus with 12 samples.

Results

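The 32 genes described here encode the enzymes, transporters and regulators with which the mouse liver makes fatty acids and builds them into triglyceride. They were chosen by name, as the rows of the gene table whose symbol equals one of 32 listed symbols, and all 32 were found among the 41128 genes of the table. By role, 7 act in the synthesis of fatty acids from citrate, 9 in elongation and desaturation and 9 in the assembly of triglyceride. The remaining genes are 2 triglyceride lipases, 4 transcription factors and the fatty acid transporter Cd36. RNA was sequenced from the livers of 12 C57BL/6 mice, with 1 library per mouse. All 12 were born germ-free as littermates and lived in sterile isolators until weaning at about day 21. The 6 germ-free (GF) mice then remained in isolators, whereas the 6 conventionalized (CV) mice spent 3 weeks in cages with soiled bedding of other mice from the facility. All mice were 6 weeks old at harvest, each condition held 3 males (M) and 3 females (F) by the labels, and the labels name no other allele or agent. The CV mice had thus met microbes for 3 weeks and not from birth, and the litter and cage of each mouse are not given, so a shared cage and the condition cannot be told apart.

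As background, fatty acids are made in the cytosol from citrate that leaves the mitochondria, with malonyl-CoA as the building block and NADPH as the reductant. The product, palmitate, is lengthened by Elovl enzymes and desaturated by Scd and Fads enzymes, and acyl chains are then placed on a glycerol backbone by the acyltransferases Gpam, Agpat and Dgat, with a phosphatase step by the lipins. In the liver this pathway is switched on after feeding by the factor encoded by Srebf1 in response to insulin, and by ChREBP, encoded by Mlxipl, which acts with its partner Mlx in response to sugar.

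The sequences upstream of 3 members that rose in CV livers, and of Mlxipl, the member that fell most, are shown with the motifs of these and of general promoter factors. RefSeq starts on GRCm38.p6 were matched for 26 of the 32 members, in 38 windows, and Elovl3, Dgat2, Scd1, Dgat1, Fads1 and Scd2 were not matched. The bases lie just upstream of the start, each is printed 5′ to 3′ on the strand of its gene, and annotated exon bases were left out. Capitals mark any of 4 motifs searched on both strands, namely the sterol regulatory element TCACNCCAC, the E-box CACGTG, the CCAAT box and the GC box GGGCGG. Me1 lies at chr9:86695954-86696164 on the minus strand, Slc25a1 at chr16:17928220-17928469 on the minus strand, Elovl2 at chr13:41220406-41220653 on the minus strand and Mlxipl at chr5:135106641-135106890 on the plus strand. The first 3 were taken by rank of adjusted p among the de novo synthesis, elongation and desaturation genes with a matched window, Fads2 was passed over because 243 of its 250 bases lie in its own annotated exon, and Mlxipl was chosen after its letters were seen. Its RefSeq start lies inside the span of the annotated gene.
Me1: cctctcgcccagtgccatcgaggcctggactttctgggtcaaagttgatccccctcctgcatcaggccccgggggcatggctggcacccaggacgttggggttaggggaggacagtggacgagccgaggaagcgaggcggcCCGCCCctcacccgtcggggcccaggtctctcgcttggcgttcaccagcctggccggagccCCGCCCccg
Slc25a1: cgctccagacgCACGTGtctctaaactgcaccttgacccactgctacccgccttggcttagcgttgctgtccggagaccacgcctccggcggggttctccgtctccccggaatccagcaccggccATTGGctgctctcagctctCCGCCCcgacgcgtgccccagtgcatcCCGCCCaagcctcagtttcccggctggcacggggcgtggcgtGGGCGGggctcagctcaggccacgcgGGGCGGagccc
Elovl2: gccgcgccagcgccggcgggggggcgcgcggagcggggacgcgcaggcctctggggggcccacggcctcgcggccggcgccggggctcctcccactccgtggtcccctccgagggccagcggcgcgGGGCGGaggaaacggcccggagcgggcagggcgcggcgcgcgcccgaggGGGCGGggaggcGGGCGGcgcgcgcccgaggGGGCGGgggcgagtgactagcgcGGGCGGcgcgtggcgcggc
Mlxipl: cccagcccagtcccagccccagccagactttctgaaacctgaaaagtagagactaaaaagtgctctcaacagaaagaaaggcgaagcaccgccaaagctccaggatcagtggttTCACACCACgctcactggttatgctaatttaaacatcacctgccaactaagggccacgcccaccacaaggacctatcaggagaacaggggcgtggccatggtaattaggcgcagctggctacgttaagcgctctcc

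Slc25a1 showed 1 E-box, 1 CCAAT box and 4 GC boxes, Elovl2 showed 5 GC boxes and Me1 showed 2. The window of Mlxipl held the sterol regulatory element, which was found in 1 of the 38 member windows (2.63%) and in 1.05% of all 32851 windows of the same length. The E-box was found in 13.2% of the member windows, in Elovl5, Lpin2, Mlx, Slc25a1 and another start of Mlxipl, and in 6.02% of all windows. The CCAAT box was found in 44.7% against 33.8%, and the GC box in 52.6% against 32.7%. These matches describe letters only, and no binding was measured.

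The libraries held 5993619 to 15290835 reads. In GF libraries 41.8% to 69.4% of the reads fell in 7 abundant loci, both mitochondrial ribosomal RNA genes among them, against 5.39% to 21.9% in CV libraries, so that 1834565 to 5303292 reads outside these loci remained in GF and 6943462 to 14411498 in CV libraries. Within CV, M 2 and M 3 stood apart from the other 4 libraries, with 21.4% and 21.9% of their reads in these loci. The library labelled CV M 3 had an Xist value of 2382 and 0 reads of Y-linked genes, which goes against its label, and values are given with and without it where it decides a result. The summed level of 6 hepatocyte markers was 96995 to 421590 in GF and 372140 to 593640 in CV livers, and 5 of the 6 were called higher in CV. Of the markers of other cells, 4 of 7 Kupffer cell genes were called higher, while 3 of 4 red blood cell and 3 of 7 sinusoidal endothelium genes were called lower. Of all genes tested, 32.3% were called higher and 28.7% lower. Among 6 adipocyte markers only Fabp4 was abundant enough to test, it was not called, and Adipoq, Lep and Plin1 were at 0 in all 6 GF libraries. In CV livers Lep and Retn were at 0 in every library, while Adipoq and Plin1 were above 0 in some. In bulk tissue, fewer cells of a type and less RNA per cell cannot be told apart.

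Most of the members that changed between GF and CV livers were higher in CV, and the changes were spread unevenly over the steps of the pathway. Supply of citrate and NADPH (Slc25a1, Me1), synthesis of polyunsaturated fatty acids (Elovl2, Elovl5, Fads1, Fads2), and the Agpat2, Agpat3 and Dgat2 steps of triglyceride assembly rose by 2.26-fold to 4.32-fold. Acetyl-CoA carboxylase (Acaca), the phosphatase Lpin2 and the transcription factor gene Mlxipl fell. The falls of Acaca and Lpin2 depended on the processing. With the trend of each library with transcript length removed, their log2 changes were 0.34 and -0.36 (limma adjusted p = 0.112 and 0.114). Mlxipl then changed by -2.40 (limma adjusted p = 2.26e-06). Changes are differences of log2(normalized read count + 1), tested with limma over 11782 genes of a mean of at least 10, and a gene was called at a Benjamini-Hochberg adjusted p under 0.05. Of the 31 members tested, 17 were called higher and 3 lower in CV, beside 32.3% of all genes called higher and 28.7% called lower. Mogat1, with 0 to 14.1 normalized reads per library, was not tested. The median change was 0.93 for the members and 0.07 for all genes tested, both on the log2 scale. For the 6 hepatocyte markers it was 1.09, so a rise of this size was not particular to the members. For 12 members all 6 CV values were higher than all 6 GF values, and for 3 all were lower, against 15.6% and 15.7% of all genes. With each library scaled to its reads outside the abundant loci, the median of all genes shifted to -0.38 and 15 members were called higher and 6 lower, beside 18.2% and 41.3% of all genes. With scaling to all reads it shifted to 0.62 and 22 were called higher and 2 lower, beside 50.3% and 13.7% of all genes. Adding the share of the abundant loci, or of mitochondrial ribosomal RNA, to the limma fit left 0 members called, with 3 and 5 at an unadjusted p under 0.05, and 7 and 0 of all 11782 genes called, and these shares moved almost wholly with the groups, with 95.3% and 93.5% of their variance between groups, so that library composition and condition cannot be told apart.

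**Figure D1:**
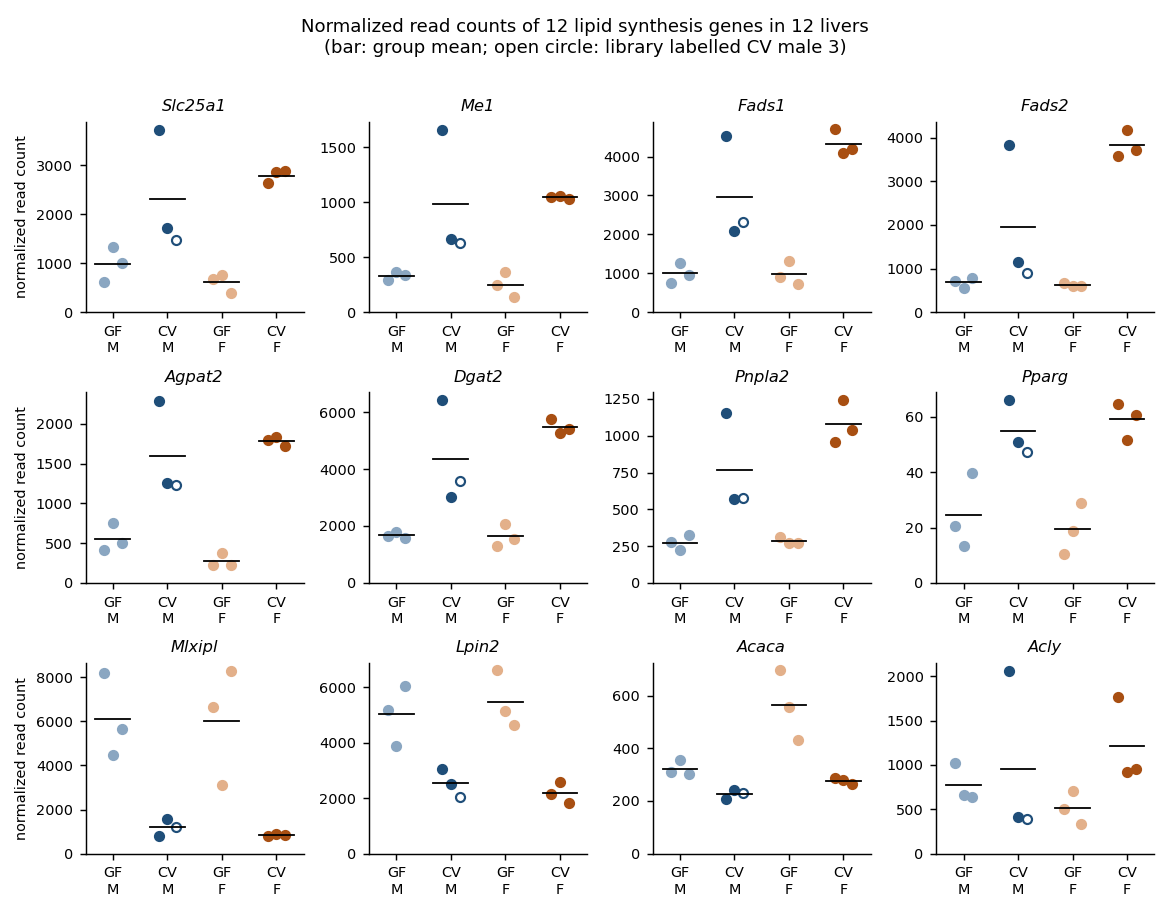
Normalized read counts (vertical axis) of 12 members in each of the 12 livers, grouped by condition and labelled sex, with a bar at each group mean and an open circle for the library labelled CV M 3. For Agpat2 the 6 CV values are all higher than the 6 GF values (1226 to 2292 against 226 to 751 normalized reads), and for Mlxipl all lower (779.6 to 1578 against 3120.1 to 8269).

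In de novo synthesis, 3 of 7 members rose, 1 fell and 3 were not called, beside 32.3% of all genes called higher and 28.7% lower. The median log2 change of these members was 0.56. Slc25a1, Me1 and Thrsp rose and Acaca fell. Slc25a1 (GRCm38 chr16:17925223-17928219, minus strand) encodes the carrier that exports citrate from mitochondria. It had normalized read counts of 612, 1324 and 998 in GF M, 3719, 1720.4 and 1462 in CV M, 678, 763 and 397 in GF F and 2634, 2848 and 2877 in CV F livers. Every CV library was above every GF library, and the change was 1.71 ± 0.26 (SE, log2) or 3.26-fold (limma adjusted p = 3.48e-05). Me1 (chr9:86581371-86695953, minus strand), the malic enzyme that yields NADPH, stood at 293, 366 and 340.1 in GF M, 1659, 663 and 633 in CV M, 251, 367 and 136 in GF F and 1048, 1062 and 1027 in CV F. It rose by 1.79 ± 0.26 (3.46-fold, limma adjusted p = 2.38e-05), again without overlap between conditions. The 3 CV F livers lay within a narrow range for both genes, while CV M 1 was well above CV M 2 and CV M 3. Thrsp, which encodes a small protein that promotes lipogenesis, ranged from 518 to 3479 in GF and from 2641 to 6454 in CV livers and rose by 1.63 ± 0.40 (3.09-fold, limma adjusted p = 0.00206).

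Acaca (chr11:84129672-84401651, plus strand) encodes the cytosolic acetyl-CoA carboxylase, whose product malonyl-CoA is the substrate of the synthase. Its counts were 311, 354 and 303 in GF M, 206, 243 and 231 in CV M, 699, 556 and 433 in GF F and 288, 279 and 263 in CV F livers. All CV libraries were below all GF libraries, and Acaca fell by 0.75 ± 0.16 on the log2 scale, to 0.594 of the GF level (limma adjusted p = 6.62e-04). The result depended on the processing. The sign changed, to 0.34 (adjusted p = 0.112), once the trend of each library with transcript length was removed. When each library was scaled to all its reads, Acaca kept its sign but was not called (-0.19, adjusted p = 0.415). Acacb, the carboxylase at the mitochondrial membrane whose malonyl-CoA restrains fatty acid oxidation, changed by -0.28 ± 0.23 (adjusted p = 0.313) and was called lower without CV M 1 (-0.49, adjusted p = 0.0288). Fasn, the fatty acid synthase, ranged from 1375 to 2306 in GF and from 1679.8 to 4922 in CV livers, a change of 0.56 ± 0.24 that missed the threshold (adjusted p = 0.0510). Without CV M 2, CV M 3, CV F 3 or GF F 2, one at a time, it was called, at 0.62 to 0.67 (adjusted p = 0.0326 to 0.0396). Fasn was also called with the length trend removed (1.24, limma adjusted p = 6.6e-04) and scaled to all reads (1.12, limma adjusted p = 4.8e-04). Scaled to reads outside the abundant loci, its change was 0.10 (limma adjusted p = 0.693). Acly, which splits citrate into acetyl-CoA, changed by 0.56 ± 0.35 (adjusted p = 0.173), with an uneven spread over the CV livers that is described with the sexes.

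In elongation and desaturation 6 of 9 members rose and 0 fell, beside 32.3% of all genes called higher and 28.7% lower. The median log2 change of these members was 1.35. The genes of polyunsaturated fatty acid synthesis rose together. Fads1 (chr19:10182888-10196877, plus strand), a desaturase of this branch, had counts of 749, 1276 and 967 in GF M, 4532, 2079 and 2308 in CV M, 907, 1303 and 715 in GF F and 4700.3, 4088 and 4185 in CV F livers. Its change was 1.85 ± 0.23 (3.61-fold, limma adjusted p = 6.13e-06). Fads2 (chr19:10062765-10101746, minus strand), the desaturase of the first step of the branch, was at 712, 552 and 791 in GF M, 3833, 1159 and 889 in CV M, 669, 604 and 598 in GF F and 3569, 4186 and 3726 in CV F. It rose by 1.92 ± 0.28 (3.78-fold, limma adjusted p = 2.41e-05), and the lowest CV library, CV M 3, was still above the highest GF library. Elovl2 (chr13:41182381-41220405, minus strand) lengthens the products of these desaturases, with 1581, 2294 and 2014 in GF M, 4537, 3281 and 4104 in CV M, 1751, 2452 and 1035 in GF F and 5953, 5621 and 6166 in CV F. It rose by 1.43 ± 0.22 (2.70-fold, limma adjusted p = 3.77e-05), with no overlap between conditions.

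Elovl5, which extends polyunsaturated chains, ranged from 999 to 3567 in GF and from 3414 to 8034 in CV livers, a rise of 1.35 ± 0.26 (2.55-fold, limma adjusted p = 3.43e-04), and its conditions overlapped by 1 GF F library. Elovl1, which makes very long saturated chains, rose by 1.04 ± 0.20 (2.05-fold, limma adjusted p = 2.99e-04), from 138 to 201 in GF to 243 to 494 in CV livers. Scd1, the desaturase that makes oleate, was the member of the highest level per kilobase of exon in CV livers, at a mean of 3004 normalized reads per kilobase. It ranged from 2168 to 8769.9 in GF and from 4662 to 28754 in CV livers, and rose by 1.39 ± 0.42 (2.61-fold, limma adjusted p = 0.00900) with overlap between conditions. Its isoform Scd2, at 10.4 to 37.2 over all libraries, was not called (-0.31 ± 0.30, adjusted p = 0.370), nor were Elovl3 (0.94 ± 0.51, adjusted p = 0.123) and Elovl6 (0.54 ± 0.28, adjusted p = 0.109). Elovl3, which makes very long saturated and monounsaturated chains, was called without CV M 3 (1.61, adjusted p = 2.94e-05). Elovl6, which extends palmitate to stearate, was called without GF M 2 (0.77, adjusted p = 0.0137) or GF F 2 (0.72, adjusted p = 0.0303). Elovl6 was also called with the length trend removed (0.79, limma adjusted p = 0.0345) and scaled to all reads (1.10, limma adjusted p = 0.00117). Scaled to reads outside the abundant loci, its change was 0.08 (limma adjusted p = 0.787).

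In triglyceride assembly 3 of the 8 tested members were higher, 1 was lower and 4 were not called, with a median log2 change of 0.21. Of all genes 32.3% were higher and 28.7% lower, so the count of members higher was near that share. The 3 that rose lie at the second and last acylation. Agpat2 (chr2:26593057-26604417, minus strand), the acyltransferase that makes phosphatidic acid, was at 412, 751 and 502 in GF M, 2292, 1254 and 1226 in CV M, 226, 380.4 and 226 in GF F and 1800.2, 1834 and 1720.2 in CV F livers. It rose by 2.11 ± 0.21 (4.32-fold, limma adjusted p = 1.41e-06), the largest rise among the members. Agpat3 (chr10:78269178-78352489, minus strand), of the same enzyme family, had 818, 991 and 911 in GF M, 2143, 1450.1 and 1574 in CV M, 670.2, 939 and 679 in GF F and 1901, 2138 and 2138 in CV F. Its rise was 1.18 ± 0.17 (2.26-fold, limma adjusted p = 2.49e-05). Both genes separated the conditions in all 12 livers. Dgat2 (chr7:99153658-99182719, minus strand), which adds the last acyl chain, stood at 1665, 1799 and 1592 in GF M, 6435, 3008 and 3592 in CV M, 1306, 2085 and 1529.6 in GF F and 5771, 5254 and 5389 in CV F. It rose by 1.53 ± 0.21 (2.88-fold, limma adjusted p = 1.60e-05). The unrelated enzyme Dgat1, which catalyses the same reaction, differed by -0.07 ± 0.19 (adjusted p = 0.772), at 130.3 to 229 in GF and 156 to 272 in CV livers.

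The phosphatidate phosphatases went the other way or were not called. Lpin2 (chr17:71182560-71249817, plus strand) ranged from 3889 to 6622 in GF and from 1839 to 3033 in CV livers and fell by 1.15 ± 0.20 on the log2 scale, to 0.451 of the GF level (limma adjusted p = 1.24e-04). With the transcript length trend removed the change was -0.36 (adjusted p = 0.114). Lpin1 changed by -0.43 ± 0.26 (adjusted p = 0.156) and was called lower without CV M 1 (-0.61, adjusted p = 0.0322), and Lpin3 changed by -0.44 ± 0.34 (adjusted p = 0.275). Gpam, the mitochondrial enzyme of the first acylation, changed by 0.49 ± 0.28 (adjusted p = 0.140) and was called higher without CV M 3 (0.70, adjusted p = 0.0271). Gpam was also called higher with the length trend removed (0.77, limma adjusted p = 0.0221) and scaled to all reads (1.05, limma adjusted p = 0.00573). Scaled to reads outside the abundant loci, its change was 0.03 (limma adjusted p = 0.938). Mogat1, which acylates monoacylglycerol, was at 0 to 8.5 in GF and 1.82 to 14.1 in CV livers, too low to test.

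Of the lipases, Pnpla2 (chr7:141455198-141460743, plus strand) encodes the enzyme that starts triglyceride breakdown. It had counts of 276, 224 and 325 in GF M, 1153, 569 and 579 in CV M, 314, 271 and 272 in GF F and 957, 1244 and 1042 in CV F livers. The rise of 1.66 ± 0.19 (3.16-fold, limma adjusted p = 4.16e-06) separated all CV from all GF libraries. Pnpla3 (chr15:84167837-84187236, plus strand), a lipid droplet protein, was low, at 6.27, 12 and 7.09 in GF M, 2.6, 14.3 and 8.18 in CV M, 78.5, 21.3 and 17.3 in GF F and 23.1, 36.3 and 16.3 in CV F. It was not called between conditions (-0.27 ± 0.43, adjusted p = 0.596), and 6.78% of its exon bases are shared with a predicted gene on the same strand.

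The 4 transcription factor genes did not move together, as 3 were called higher and 1 lower, beside 32.3% and 28.7% of all genes. Mlxipl (chr5:135089890-135138382, plus strand), which encodes ChREBP, was at 8200.5, 4458 and 5666 in GF M, 779.6, 1578 and 1211 in CV M, 6657, 3120.1 and 8269 in GF F and 813, 910.2 and 842 in CV F livers. It fell by 2.54 ± 0.25 on the log2 scale, to 0.172 of the GF level (limma adjusted p = 1.32e-06), and no CV library reached the lowest GF library. In GF livers Mlxipl had the highest level per kilobase of exon of all members, at 1095 normalized reads per kilobase, beside 184.6 in CV livers. Its partner Mlx (chr11:101087277-101092207, plus strand) was at 127, 154 and 139 in GF M, 299, 185 and 192 in CV M, 136, 112 and 76.7 in GF F and 238, 248 and 249 in CV F. It rose by 0.93 ± 0.18 (1.91-fold, limma adjusted p = 3.78e-04), and fell short of the threshold with the length trend removed (0.34, adjusted p = 0.0886). Of the exon bases of Mlx, 19.3% overlap Psmc3ip on the opposite strand, and whether reads were counted by strand is not given in the sources used here.

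Pparg (chr6:115360951-115490399, plus strand), a lipid-sensing nuclear receptor best known in adipocytes, was low but separated the conditions. Its counts were 20.6, 13.3 and 39.7 in GF M, 66.1, 50.9 and 47.2 in CV M, 10.6, 18.6 and 28.8 in GF F and 64.8, 51.7 and 60.8 in CV F livers, a rise of 1.45 ± 0.28 (2.74-fold, limma adjusted p = 3.61e-04). The summed adipocyte markers ranged from 72.5 to 213 in GF and from 49.4 to 215 in CV livers. Of these, Adipoq and Plin1 were above 0 only in CV livers, at levels too low to test. The part of such cells in the Pparg values was not tested. Srebf1 (chr11:60199089-60222581, minus strand) was at 954, 1222 and 1094 in GF M, 1545, 1339 and 1457 in CV M, 939, 1053 and 1685 in GF F and 2631, 1474 and 1652 in CV F. Its change of 0.53 ± 0.20 (1.44-fold, limma adjusted p = 0.0282) was the smallest of those called and held in 16 of 26 other settings. It was not called without CV F 1 (0.40, adjusted p = 0.0951), GF F 1 (0.45, adjusted p = 0.0821), GF M 1 (0.48, adjusted p = 0.0624) or GF M 3 (0.53, adjusted p = 0.0523). Cd36 (chr5:17781690-17888801, minus strand), which takes up fatty acids from blood, had 98.5, 112 and 129 in GF M, 269, 168 and 232 in CV M, 143, 223 and 105 in GF F and 223, 182 and 185 in CV F. It rose by 0.67 ± 0.20 (1.59-fold, limma adjusted p = 0.00796), and the overlap between conditions came from GF F 2.

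**Figure D2:**
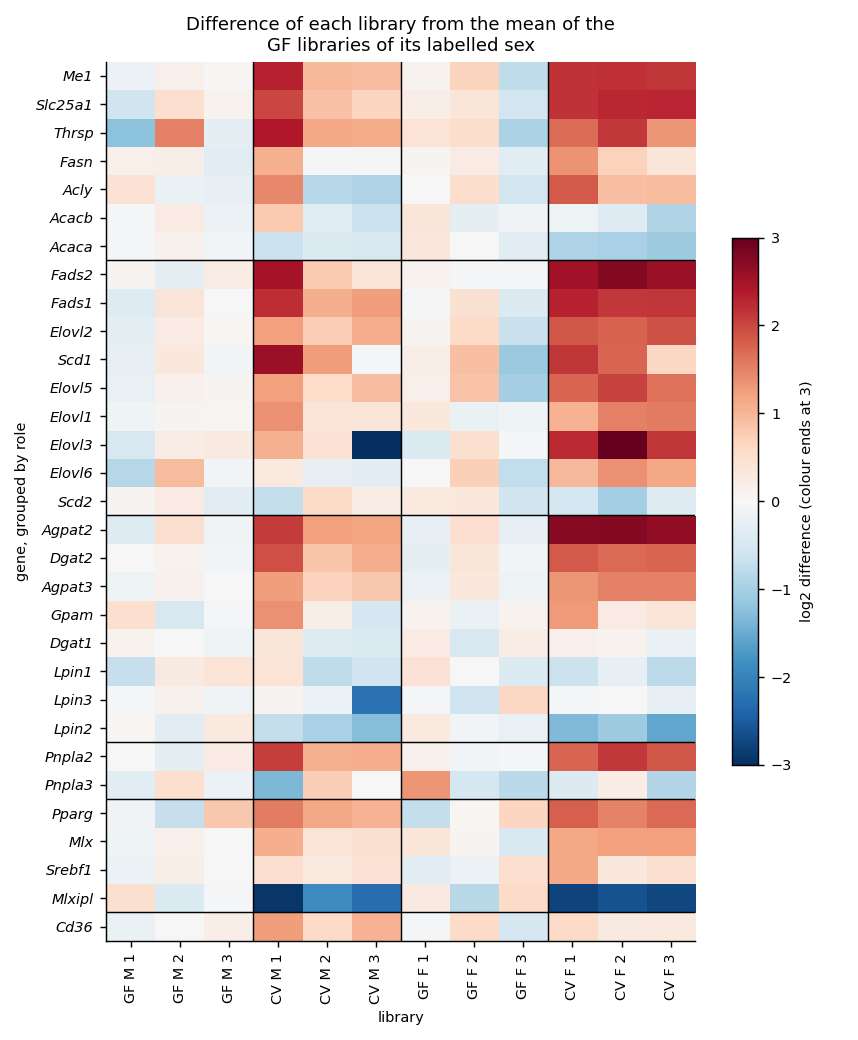
Difference of each library (columns) from the mean of the GF libraries of its labelled sex for 31 members (rows, grouped by role), as log2 with colour ends at 3. The 3 CV F libraries and CV M 1 show the highest values, with medians over the members of 1.33, 1.37, 1.16 and 1.22, while CV M 2 and CV M 3 lie nearer to GF at 0.55 and 0.35.

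Within the sexes, more members were called higher in F than in M livers, and the same held for all genes. In M mice 12 members were called higher and 2 lower, beside 14.1% and 15.4% of all genes, and in F mice 18 were called higher and 3 lower, beside 29.8% and 26% of all genes. The median log2 change of the members was 0.65 in M and 1.23 in F livers, beside 0.06 and 0.08 for all genes. For the 6 hepatocyte markers the medians were 0.64 in M and 1.54 in F livers. In elongation and desaturation 3 of 9 members were called higher in M and 8 of 9 in F livers, with medians of 0.90 and 1.80. In de novo synthesis 3 of 7 were called higher in M, and 4 higher and 1 lower in F, with medians of 0.33 and 1.23. In triglyceride assembly 3 of 8 were higher and 1 lower in each sex, with medians of 0.10 and 0.33. These equal counts stand beside unlike shares of all genes, 14.1% higher and 15.4% lower in M and 29.8% and 26% in F livers. Leaving out certain single mice lowered the counts in M livers for the members and for all genes. Called higher were 5 members without GF M 1 (6.15% of all genes), 6 without CV M 1 (8.2%) and 8 without GF M 3 (8.35%). Called lower was 1 member without GF M 1 (7.46%), GF M 3 (9.77%) or CV M 3 (13.1%). Without CV M 3, Elovl1 and Scd1 were also called higher in M livers, with 12.1% of all genes called higher in that fit. Without both CV M 2 and CV M 3, an alternative chosen after the data were seen, 16 were called higher and 1 lower in M livers, beside 15.8% and 15.1% of all genes, where CV M 1 alone then stood for the group and was assumed to vary like the others.

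**Figure D3:**
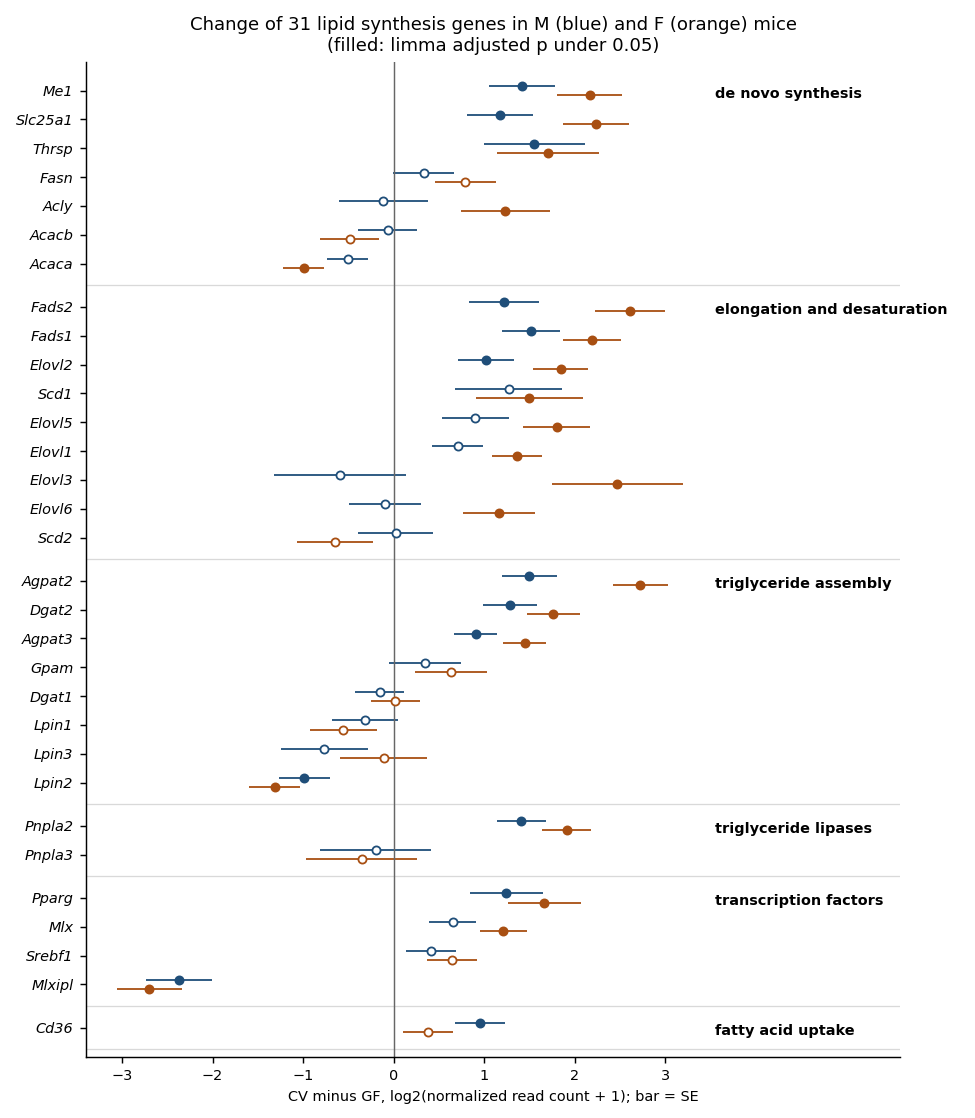
Change of 31 members between GF and CV (horizontal axis, log2 of normalized read count + 1) in M (blue) and F (orange) mice, with bars of 1 SE and filled symbols for limma adjusted p under 0.05. The M value exceeds the F value for 8 of the 31 members, and the reverse is seen for Agpat2 (2.72 against 1.5), and both sexes show the fall of Mlxipl (-2.70 and -2.37).

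Whether the effect differed between the sexes was tested as such, and 0 members and 0 of 11782 genes passed in limma. At an unadjusted p under 0.05 there were 4 of 31 members and 1382 genes, 11.7% of those tested, so the members did not stand out from all genes. On the recovered reads edgeR called 0 members and 0 genes, and DESeq2 called 0 members, with 8 genes higher and 11 lower in M. The members at an unadjusted p under 0.05 were Elovl3, Agpat2, Fads2 and Elovl6, all with the lower change in M livers. Without the library labelled CV M 3, only 2 members were at an unadjusted p under 0.05, and the share of all genes was not computed for that fit. Agpat2 rose by 1.5 ± 0.30 in M (2.83-fold, limma adjusted p = 0.00292) and by 2.72 ± 0.30 in F livers (6.61-fold, limma adjusted p = 8.13e-06). The difference of these effects was -1.22 ± 0.43 (unadjusted p = 0.0109, limma adjusted p = 0.417). Fads2 rose by 1.22 ± 0.39 in M (2.33-fold, limma adjusted p = 0.0280) and 2.61 ± 0.39 in F livers (6.12-fold, limma adjusted p = 5.55e-05), a difference of -1.39 ± 0.55 (limma adjusted p = 0.417). Its call in M livers was lost without CV M 1 (0.58, adjusted p = 0.0820) and without GF M 1, GF M 2 or GF M 3 (1.07 to 1.33, adjusted p = 0.0532 to 0.0736). For both genes CV M 1 was in or above the range of the CV F livers, and CV M 2 and CV M 3 were below it.

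Elovl6 changed by -0.09 ± 0.40 in M (limma adjusted p = 0.876) and rose by 1.17 ± 0.40 in F livers (2.25-fold, limma adjusted p = 0.0202), a call lost without CV F 2 (1.07, adjusted p = 0.0678) or GF F 3 (0.80, adjusted p = 0.113). Acly, named after its values were seen, changed by -0.11 ± 0.49 in M (limma adjusted p = 0.881) and rose by 1.23 ± 0.49 in F livers (2.35-fold, limma adjusted p = 0.0428). The call in F livers was lost without any one of CV F 1, CV F 2, CV F 3, GF F 1, GF F 3 and GF M 3, at 0.93 to 1.40 (adjusted p = 0.0517 to 0.169). In CV M livers it was 2062 in mouse 1 and 417 and 394 in mice 2 and 3. Without CV M 1 the difference between the sexes was called for Acly (-2.13, adjusted p = 0.0372), Fads2 (-2.03, adjusted p = 0.0272) and Elovl3 (-3.89, adjusted p = 0.0498), beside 1.59% of all genes called lower and 0.883% higher, where 0 were called over all libraries. The CV M group was then CV M 2 and CV M 3, and CV M 3 goes against its label. These calls thus cannot be read as a difference between males and females. Without CV M 3 instead, 0 members were called, beside 0.034% of all genes lower and 0% higher. Cd36 was called in M (0.95 ± 0.28, limma adjusted p = 0.0191) and not in F livers (0.38 ± 0.28, limma adjusted p = 0.256), a difference of 0.57 that was not called. Both calls rest on single libraries, since Cd36 was not called in M without CV M 1 (0.81, adjusted p = 0.0680) or GF M 1 (0.86, adjusted p = 0.0778) and was called in F without GF F 2 (0.67, adjusted p = 0.0435).

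**Figure D4:**
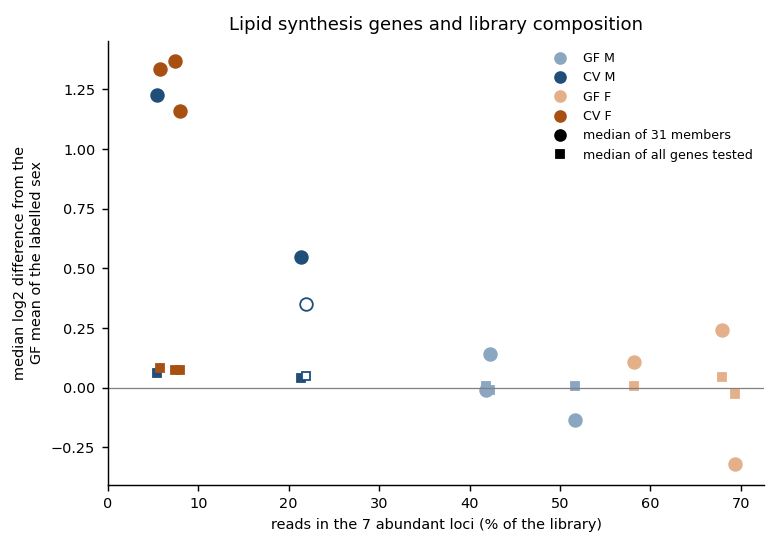
Median log2 difference of the 31 members (circles) and of all 11782 genes tested (squares) from the GF mean of the labelled sex (vertical axis), against the share of a library's reads in the 7 abundant loci (horizontal axis, %), coloured by group. CV M 1 and the CV F libraries, at 5.39% to 7.96%, had member medians of 1.16 to 1.37, CV M 2 and CV M 3, at 21.4% and 21.9%, had 0.55 and 0.35, and all genes stayed between -0.03 and 0.08.

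Library composition moved with this spread among the CV mice. In CV M 1 the 7 abundant loci took 5.39% of the reads and the median log2 difference of the members from GF was 1.22, in CV M 2 the values were 21.4% and 0.55, and in CV M 3 they were 21.9% and 0.35. The CV F libraries had 5.75%, 7.47% and 7.96% of their reads in these loci and member medians of 1.33, 1.37 and 1.16. De novo synthesis showed it most, with medians of 1.45, -0.04 and -0.04 in CV M 1, 2 and 3. The part of library composition in the difference between these mice was not tested.

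Between M and F mice of the same condition, Elovl3 was the member that stood out. Elovl3 (chr19:46131897-46135694, plus strand) was at 1126, 1828 and 1902 in GF M and at 25.7, 47.9 and 32.6 in GF F livers, which do not overlap. It was 5.48 ± 0.73 higher in M on the log2 scale (44.8-fold, limma adjusted p = 0.00144), and was the 1 member called higher in GF M, beside 1.23% of all genes, with 0 members called lower, beside 0.399%. At an unadjusted p under 0.05 there were 6 members, beside 17.6% of all genes. DESeq2 called 3 members lower (Acaca, Acacb and Pnpla3), beside 0.84% of all genes, and edgeR called 0, beside 0.255%. In CV livers it was at 3291, 2137 and 162 in M and 166, 286 and 156 in F, so that the library labelled CV M 3 lay within the F range. Over all 3 CV M libraries the difference from F was 2.42 ± 0.73 (limma adjusted p = 0.547), and without CV M 3 it was 3.76 (adjusted p = 3.34e-06). In CV mice 0 members were called between the sexes, beside 0.0594% of all genes, and 4 members had an unadjusted p under 0.05, beside 5.1%. There DESeq2 called 1 member higher in M, Elovl3, beside 0.373% of all genes, and edgeR called 0. Elovl3 rose between GF and CV in F livers by 2.47 ± 0.73 (5.55-fold, limma adjusted p = 0.0087). In M livers the change was -0.59 ± 0.73 (limma adjusted p = 0.564), and 0.75 (adjusted p = 0.124) without CV M 3. The difference of the effects was -3.07 ± 1.03 (limma adjusted p = 0.417), and -1.72 (adjusted p = 0.541) without that library.

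Acaca, Acacb, Pnpla3, Agpat2, Elovl2 and Elovl5 also lay apart between the labelled sexes without overlap in GF or CV livers, and none was called in limma. Acacb was at 227, 283 and 211 in GF M and 752, 489 and 550.1 in GF F livers, a difference of -1.29 ± 0.33 (limma adjusted p = 0.0573, and 0.0362 without CV M 3). In CV livers its values were 415, 185 and 154 in M and 526, 446 and 314 in F, which overlap. For Acaca, M was below F without overlap in both conditions, with a difference of -0.78 ± 0.22 in GF livers (limma adjusted p = 0.0912). Pnpla3 was also lower in every M than in every F library of its condition, with differences of -1.80 ± 0.61 in GF (limma adjusted p = 0.141) and -1.65 ± 0.61 in CV livers (limma adjusted p = 0.845). Agpat2 was higher in GF M than in GF F livers by 0.99 ± 0.30 (limma adjusted p = 0.109). In GF mice 2 of 31 members lay higher in M and 3 lower without overlap, beside 10.2% and 8.46% of all genes, so the members did not stand out there. In CV mice 0 lay higher in M and 4 lower (Acaca, Pnpla3, Elovl2 and Elovl5), beside 6.57% and 4.36%. The CV counts include CV M 3 as M, although its Xist and Y-linked reads go against that label.

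**Figure D5:**
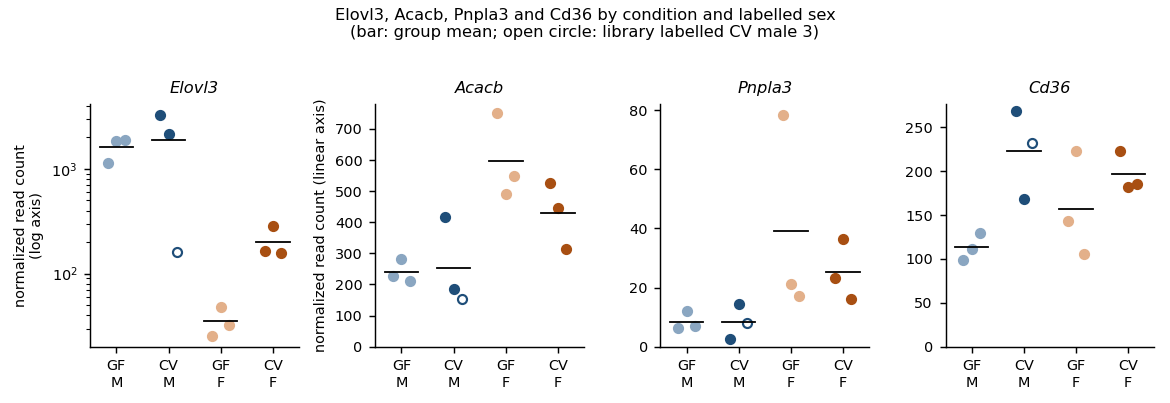
Normalized read counts of Elovl3 (log axis) and of Acacb, Pnpla3 and Cd36 (linear axes) by condition and labelled sex, with a bar at each group mean and an open circle for the library labelled CV M 3. Elovl3 lies at 1126 to 1902 in GF M and 25.7 to 47.9 in GF F livers, and the open circle, at 162, falls among the CV F values.

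Genes that work beside the members were read from the same fit. These lists were drawn up by role, with earlier results of these data known, so their counts are descriptive. The shares called over all genes given above apply to them too. Among 15 tested enzymes of the same steps, 7 were called higher and 3 lower in CV over both sexes, with a median log2 change of 0.53, and 5 higher and 2 lower in M and 7 higher and 2 lower in F livers. Gpat3, an acyltransferase of the first step beside Gpam, rose by 3.42 ± 0.33 (10.7-fold, limma adjusted p = 1.11e-06). Tecr and Hacd3, which complete each elongation cycle, rose by 1.44 ± 0.21 (2.72-fold, limma adjusted p = 3.05e-05) and 1.24 ± 0.18 (2.37-fold, limma adjusted p = 2.35e-05). The 3 that were lower, named after their values were seen, were Fads3, Agpat1 and Fads6, at -1.76, -1.08 and -0.48. Of 12 regulators of SREBP and LXR signalling, 6 were higher and 1 lower over both sexes, 1 higher in M, and 5 higher and 1 lower in F livers. Mid1ip1, a relative of Thrsp that activates acetyl-CoA carboxylase, rose by 2.08 ± 0.23 (4.23-fold, limma adjusted p = 2.53e-06). Insig2, which retains SREBP in the endoplasmic reticulum, rose by 1.52 ± 0.21 (2.88-fold, limma adjusted p = 1.86e-05), and Srebf2, the sterol counterpart of Srebf1, by 0.69 ± 0.19 (1.61-fold, limma adjusted p = 0.00471). The lower one was Ppargc1b, at -0.88, also named after its value was seen.

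Among 8 genes that supply carbon and NADPH, 7 were higher and 0 lower over both sexes, with 1 higher in M and 7 in F livers. Idh1, an NADPH-yielding dehydrogenase, rose by 1.22 ± 0.25 (2.34-fold, limma adjusted p = 5.64e-04), and Pgd, of the pentose phosphate pathway, by 0.87 ± 0.18 (1.82-fold, limma adjusted p = 5.36e-04). Of 14 tested genes of lipid droplets and of triglyceride breakdown or export, 12 were higher and 1 lower over both sexes, 8 higher in M, and 11 higher and 1 lower in F livers. Cideb, which acts in lipid loading of lipoproteins, rose by 2.38 ± 0.25 (5.22-fold, limma adjusted p = 1.61e-06), the droplet coat gene Plin2 by 1.95 ± 0.24 (3.85-fold, limma adjusted p = 6.95e-06) and the seipin gene Bscl2 by 1.70 ± 0.19 (3.25-fold, limma adjusted p = 2.53e-06). Plin4, named after its value was seen, was the lower one, at -1.67. Of 9 genes of fatty acid uptake and activation, 6 were higher and 1 lower over both sexes, with 3 higher in M and 6 in F livers. Acsl5, an acyl-CoA synthetase, rose by 2.34 ± 0.30 (5.05-fold, limma adjusted p = 1.02e-05), and the transport proteins Slc27a5 and Slc27a2 rose by 1.54 ± 0.24 (2.91-fold, limma adjusted p = 4.57e-05) and 1.46 ± 0.24 (2.76-fold, limma adjusted p = 7.97e-05). Lpl, which releases fatty acids from lipoproteins, was the lower one, at -0.47, and was named after its value was seen.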

How the data were processed

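Liver poly(A) RNA of 12 mice was sequenced from stranded libraries (Illumina TruSeq mRNA kit). The deposited values are a signal per gene, namely read counts that the authors divided by 1 size factor per library: multiplied back, 100% of them were whole reads within 0.01 reads. The submitters' processing notes name HTSeq 0.6.1p1, DESeq2 and GRCm38 without a role. The aligner and annotation are not given in the sources used here. A paper was supplied with the series, but it describes another experiment, so no method was taken from it.

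Groups and replicate numbers came from the titles. The values were tested as log2(value + 1) with limma 3.58.1 (R 4.3.3), 1 mean per group of 3 libraries, empirical Bayes with a variance trend, over 11782 genes of a mean of at least 10, with Benjamini-Hochberg adjustment and a threshold of 0.05. Contrasts were CV against GF over both sexes (the mean of the M and F effects), within M and within F, the difference of these effects, and M against F within each condition. Fold changes on this scale understate the change of low genes. The design allowed for raw or normalized values, and the normalized form applied. edgeR 4.0.16 and DESeq2 1.42.0 on the recovered whole reads were alternatives. The members and all gene lists were chosen with earlier results of these data known. Library values are printed for the 3 members of each role with the smallest adjusted p, the transcription factors, Cd36, the 3 members with the smallest p for a difference between sexes, and 4 for M against F in GF mice. Of each further list up to 3 genes are named by adjusted p. A gene that this rule would name is not reported here. Gene positions are those of the GRCm38 annotation (GENCODE vM21). The replicate numbers come from the titles, which give no shared litter, cage or day. Same-numbered CV M and CV F mice deviated together in all 3 pairs, though weakly (correlations of 0.118 to 0.193, each over 0.1). For M against F in CV mice a fit with the number as a block also called 0 members. The values printed for that comparison come from the fit without the block. In the other comparisons not every pair was over 0.1. Transcript lengths were known for 11731 of the genes tested. The script was tested on simulated data with known changes.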

Additional observations from a re-analysis of the deposited data

Results flagged for a closer look

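Among 64 groups of 6 libraries, the 32 members in each condition, 4 held a library far from the other 5 by Dixon's criterion, and chance gives about 1 in 20 such groups. In GF livers Dgat1 was 130.3 in GF F 2 and 194.2 to 229.2 in the others. In GF livers Pnpla3 was 78.5 in GF F 1 and 6.27 to 21.3 in the others. In GF livers Cd36 was 223.4 in GF F 2 and 98.5 to 143.4 in the others. In CV livers Srebf1 was 2631 in CV F 1 and 1339 to 1652 in the others.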

How the results depend on the processing

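The comparisons were repeated under 27 alternatives, 26 of them planned and 1, without CV M 2 and CV M 3 together, added after the data were seen. Counts of members called that moved by over 1.5 times are given here, followed by values that changed sign, and the cause was not tested unless named. Over both sexes the counts were 17 higher and 3 lower, beside 32.3% and 28.7% of all genes. With either share as a covariate 0 members were called in CV against GF over both sexes, in M or in F. At most 0.0934% of all genes were called in each direction there. In GF M against GF F 0 members were called higher, beside 0.034% of all genes. The covariates widened the standard errors by 2.71 to 3.75 times (mitochondrial ribosomal RNA) and 2.83 to 4.49 times (abundant loci). Scaled to reads outside the abundant loci, 6 members were lower over both sexes and 6 in F, beside 41.3% and 39.5% of all genes. In GF M against GF F 2 were then lower, beside 0.586%. Scaled to all reads, 1 was lower in M and 1 in F, beside 6.69% and 9.5% of all genes. In GF M against GF F 3 were then higher, beside 11.4%. With the length trend removed 1 was lower over both sexes, 1 in M and 1 in F, beside 24.8%, 11.4% and 21% of all genes. With only the M libraries in the fit 1 was lower in M, beside 11.6%. DESeq2 called 3 members lower in GF M and 1 higher in CV M against F, beside 0.84% and 0.373% of all genes. Without CV M 2 and CV M 3 the counts were 1 lower in M, 1 lower in GF M and 1 higher in CV M against F. The abundant share as a covariate gave 1 lower in GF M against GF F, beside 0.0424% of all genes.

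Over all 18 same-numbered pairs of mice, the correlation of their deviations from the group means was -0.228 to 0.403, and 5 pairs were over 0.1. These were the 3 pairs of CV M and CV F, 1 of 3 of GF M and GF F and 1 of 3 of GF M and CV F. Over the 6 GF and CV pairs of the same sex 0 were over 0.1. Every library correlated best with its own number between CV M and CV F, and in no other pair of groups. With the replicate number as a block, 18 members were higher and 3 lower over both sexes, beside 32.7% and 28.6% of all genes. In M 13 were higher and 2 lower, beside 14.4% and 15%. In F 19 were higher and 3 lower, beside 30.2% and 26.1%. In GF M against GF F 1 (Acacb) was lower, beside 0.475%. The block changed no call between CV M and CV F.

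With 1 library left out, 16 to 20 members were higher over both sexes, beside 29.7% to 33.6% of all genes. From 3 to 5 were lower (5 without CV M 1), beside 26.4% to 29.6%. In M 5 to 14 were higher and 1 to 2 lower, beside 6.15% to 16.2% and 7.46% to 16.8%. In F 15 to 20 were higher and 3 lower, beside 25.1% to 31.6% and 21.7% to 27.5%. For the difference between sexes 0 were higher and 0 to 3 lower (3 without CV M 1), beside 0% to 0.883% and 0% to 1.59%. In GF mice 1 to 2 were higher in M (2 without GF F 2), beside 0.323% to 5.43%. There 0 to 1 were lower (1 without GF F 2, CV M 1 or CV M 3), beside 0.0934% to 0.645%. In CV mice 0 to 1 were higher in M (1 without CV M 3), beside 0.0255% to 0.373%. There 0 to 1 were lower (1 without CV M 1), beside 0% to 0.28%.

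Signs changed as follows, as log2 changes over both sexes unless a sex is named. With the abundant share in the model, values were -1.30 for Slc25a1, -2.68 for Acly, -1.20 for Fasn, -0.78 for Me1, -2.61 for Thrsp, -0.97 for Elovl1, -2.996 for Elovl3, -0.037 for Elovl5, -1.54 for Elovl6, -0.23 for Fads1, -1.02 for Fads2, -2.64 for Scd1, 0.95 for Scd2, -1.46 for Gpam, -0.81 for Mlx and -0.30 for Cd36. Within M they were -0.74 for Fads2, and within F -3.08 for Acly, -2.78 for Elovl3, -1.61 for Elovl6, -1.30 for Fads2 and -0.91 for Cd36. With the mitochondrial ribosomal RNA share, values were -1.68 for Acly, -0.48 for Fasn, -0.42 for Elovl1, -2.85 for Elovl3, -0.69 for Fads2, -0.38 for Scd1, 1.88 for Scd2, -1.55 for Gpam, 2.08 for Pnpla3 and -0.31 for Srebf1. Within M the value was -0.35 for Fads2, and within F -1.91 for Acly, -2.84 for Elovl3 and -1.04 for Fads2. Scaled to all reads, values were 0.28 for Acacb, 0.22 for Scd2, 0.13 for Lpin1, 0.11 for Lpin3, 0.49 for Dgat1 and 0.25 for Pnpla3, and within M 0.20 for Acly and 0.22 for Elovl6. Scaled to reads outside the abundant loci, Cd36 was -0.23 in F. With the length trend removed, Acaca was 0.34, Acacb 0.28 and Lpin1 0.12, and Elovl6 was 0.10 in M. In M livers edgeR gave 0.25 for Acly and 0.14 for Elovl3, and DESeq2 0.26 and 0.17. Without CV M 2 and CV M 3, Acacb was 0.16 and Dgat1 0.19, and in M livers Acly was 1.45, Elovl3 1.06 and Elovl6 0.28. With 1 library left out, Dgat1 ranged from -0.20 to 0.0026 (positive without CV M 3) and Pnpla3 from -0.51 to 0.055 (positive without GF F 1 or CV M 1). In M livers Acly ranged from -0.89 to 0.30 (positive without GF M 1, CV M 2 or CV M 3), Elovl3 from -1.42 to 0.75 (positive without CV M 3) and Elovl6 from -0.52 to 0.38 (positive without GF M 2 or CV M 3).

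The values with pseudocounts of 0.5 and 5, TMM factors, other minimum levels and edgeR kept the counts over both sexes within 1.5 times. The GF libraries limit the precision, because 1834565 to 5303292 reads outside the abundant loci remained in them.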
